A study of Mus musculus with 4 samples.

Results

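The connecting tubule (CNT) cells described here are 2080 of the 32407 single cells that passed quality limits in 4 libraries from mouse renal cortex. A barcode was kept as a cell at 1000 or more detected genes and at most 50% of its unique molecular identifiers (UMIs) from mitochondrially encoded (mt-) genes. It was taken as a CNT cell if *Calb1* and *S100g* together reached 30 UMIs per 10,000 of the cell (CP10k) and exceeded *Aqp2* and *Fxyd4* together. It also had to hold less than 3 CP10k of *Slc12a3*, less than 40 CP10k of *Slc12a1* and *Umod* together, and less than 5 CP10k of *Slc34a1*. These 8 genes chose the cells, and their levels are given only as a description.

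The libraries count the 3′ ends of transcripts on the 10x Genomics platform, and the cortex was dissected from male mice. Young (6 weeks) and aged (24 months) mice of the genotypes *Tfeb* fl/fl and *Tfeb* fl/fl KAP gave 4 conditions, each with 1 library from the pooled cortex of 2 or 3 mice. Lists of 4 values give the young *Tfeb* fl/fl library, the young KAP library, the aged *Tfeb* fl/fl library and the aged KAP library, in this order. All 4 groups carried the floxed *Tfeb* alleles, and KAP marks mice that also carried Cre under the promoter of kidney androgen-regulated protein. The study describes this Cre as specific to S3 proximal tubule cells within the kidney. The *Tfeb* fl/fl mice without Cre were the controls. A single library per condition leaves no spread between mice to test against. P-values are therefore absent, and intervals cover counting error only.

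The CNT joins the distal convoluted tubule (DCT) to the collecting duct. Its cells take up calcium from the tubular fluid through the channel TRPV5, carry it through the cytosol bound to the calbindins encoded by *Calb1* and *S100g*, and return it to the blood through the sodium-calcium exchanger encoded by *Slc8a1* and plasma membrane calcium pumps. They also reabsorb sodium through the epithelial sodium channel under aldosterone, for which 11β-hydroxysteroid dehydrogenase type 2, encoded by *Hsd11b2*, keeps the mineralocorticoid receptor free of glucocorticoids. Intercalated cells, which handle acid and base, lie among the CNT cells.

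The rule found 860, 540, 275 and 405 cells. These were 7.81% (exact 95% interval 7.31 to 8.32), 6.38% (5.87 to 6.92), 4.59% (4.07 to 5.15) and 5.84% (5.30 to 6.42) of the quality-filtered cells. The share was lower in both aged libraries than in either young library. How many cells of a type survive dissociation cannot be told apart from how many the tissue holds. The CNT cells held 16057445, 11471364, 7663926 and 9053470 UMIs, with medians per cell of 17408, 19102, 22463 and 17254 UMIs and of 3811, 3953, 5112 and 4132 genes. The median share of mt- genes was 19.0, 18.3, 10.8 and 13.9% of UMIs, lower in the aged cells. At most 57 barcodes were shared by any pair of libraries, and at most 1 of these was a CNT cell in both.

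Few cells lay close to the calbindin limit of the rule. Between 30 and 60 CP10k of *Calb1* and *S100g* there were 21, 9, 14 and 24 CNT cells, and between 15 and 30 CP10k there were 48, 9, 3 and 7 cells that met every other limit and were left out. The medians of this sum, 414, 491, 263 and 304 CP10k, were far above the limit. *Slc12a3* was above 0 but below 3 CP10k in 82, 47, 29 and 23 CNT cells, and 19, 8, 12 and 13 cells at 3 to 6 CP10k were left out. The ratio of the calbindin sum to the sum of *Aqp2* and *Fxyd4* was between 1 and 2 in 12, 10, 22 and 39 CNT cells. These were a larger part of the aged CNT cells (22 of 275 and 39 of 405) than of the young ones (12 of 860 and 10 of 540). Another 10, 3, 9 and 19 cells at a ratio of 0.5 to 1 met every other limit and were left out. The part of this border in the age differences was not tested.

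The label was then set against the markers of other cell types. Markers of proximal tubule, podocytes, endothelium, stroma and immune cells were low in the summed CNT cells. In counts per 1000000 UMIs (CPM), the sums were 79.7, 44.4, 49.3 and 18.8 for the proximal tubule list and 74.4, 45.0, 19.7 and 17.3 for the immune list. The thick ascending limb list, led by *Umod*, summed to 144 CPM in the young *Tfeb* fl/fl library and to 70.7 CPM in the aged KAP library. The rule limited *Umod* and, in the proximal tubule list, *Slc34a1*, so the low sums of both lists were partly fixed by it. No list named here was highest in an aged library. The intercalated list behaved differently. Its 8 genes summed to 1377, 1422, 3174 and 2749 CPM, led by *Atp6v1g3*, a subunit of the proton pump, at 720.4, 822, 1616 and 1505 CPM. All 8 intercalated genes were at least 1.5-fold higher in the aged library of both pairs, where 5.77% of all genes were.

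In single cells this signal was not spread evenly. Cells with 10 CP10k or more of other types' markers, over 37 genes, numbered 251, 110, 133 and 135, and intercalated markers passed that limit in 221, 100, 132 and 130 of them. They made up 29.2, 20.4, 48.4 and 33.3% of the CNT cells and held 40.6, 32.8, 73.4 and 57.6% of their UMIs. Their median depth was 1.72, 2.02, 3.18 and 2.92 times that of the other CNT cells. Scrublet, a doublet caller, would have removed 9.96 and 12.7% of them in the young libraries, 2 of 133 in the aged *Tfeb* fl/fl library and 3.70% in the aged KAP library, against 2.63, 1.63, 1.41 and 1.48% of the rest. Only 63, 17, 5 and 16 cells lay within 5 to 20 CP10k, near the limit of 10.

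**Figure D1:**
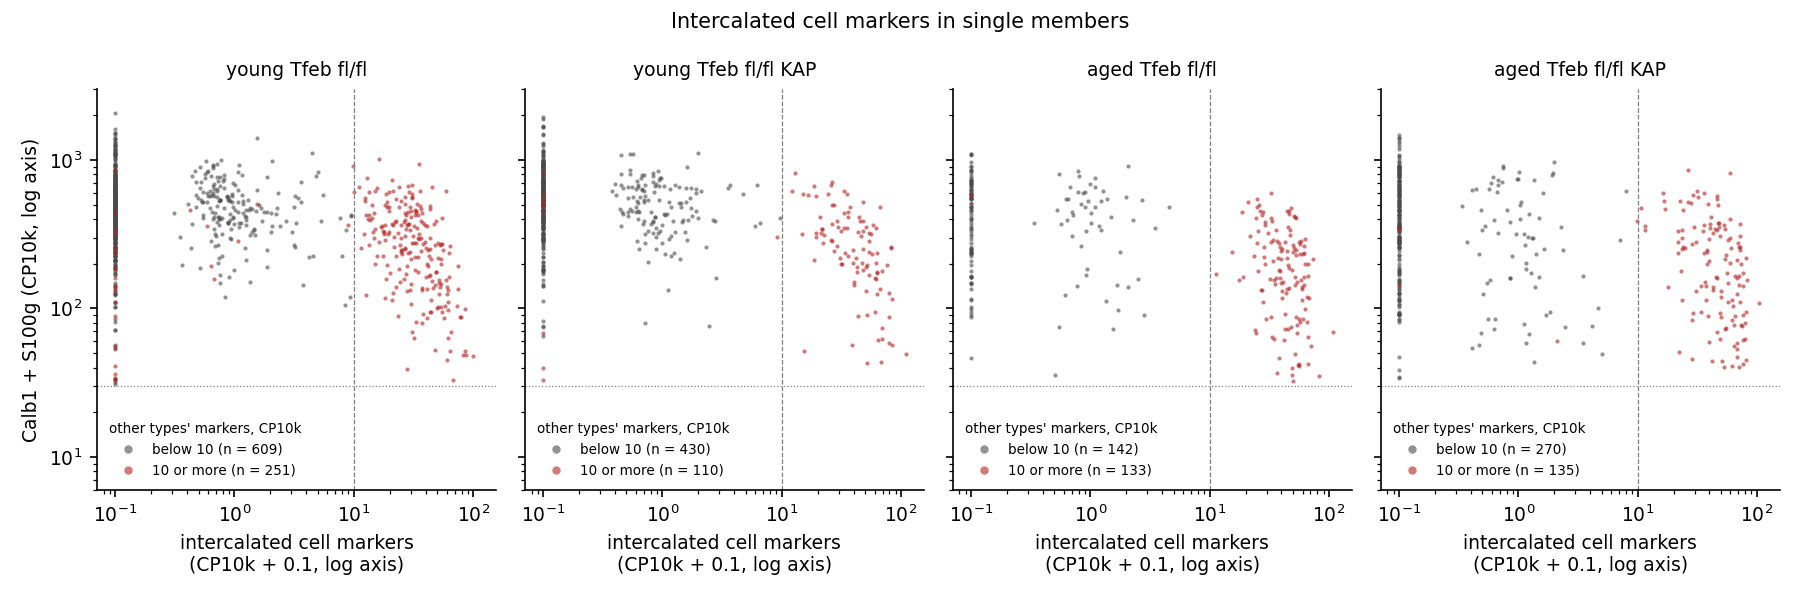
Each point is a CNT cell, with the sum of the 8 intercalated cell markers on the x axis and the sum of Calb1 and S100g on the y axis, both in CP10k on log axes, in a panel per library. Red points hold 10 CP10k or more of other types' markers (251, 110, 133 and 135 cells), most of them to the right of the dashed line in a group set apart from the grey cells.

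Counts of genes that differed are therefore given for all CNT cells and for the 609, 430, 142 and 270 cells below 10 CP10k, called low-marker CNT cells, and single values name the cells they come from. In these the intercalated list summed to 51.9, 38.5, 49.0 and 31.5 CPM, a low level that the limit itself fixed. The low-marker cells held 9540805, 7704382, 2041562 and 3835580 UMIs. Whether the cells above the limit are doublets or single cells of a mixed type was not tested.

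Among the 5 CNT markers, *Calb1* (chromosome 4, 15881264 to 15908064, plus strand of GRCm38) encodes calbindin-D28k and *S100g* (chromosome X, 162961992 to 162964599, minus strand) encodes calbindin-D9k. *Slc8a1* lies on chromosome 17 (81373105 to 81738377, minus strand), *Klk1*, which encodes the secreted protease tissue kallikrein, on chromosome 7 (44225360 to 44229618, plus strand) and *Trpv5* on chromosome 6 (41652173 to 41680769, minus strand). *Calb1* and *S100g* chose the cells, so the label was read from the others.

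The levels of these genes were compared with late DCT cells, which met the same calbindin limit but held 3 CP10k or more of *Slc12a3*, early DCT cells, with as much *Slc12a3* but calbindins below the limit, and principal cells (PC), with at least 30 CP10k of *Aqp2* and *Fxyd4* together and no more calbindins than these. *Klk1* was at 19333, 25168, 14827 and 17439.6 CPM in all CNT cells and at 26775, 33498, 31118 and 27019 CPM in low-marker cells. It was at 14959, 18879, 16768 and 16597 CPM in late DCT cells and at 69.3, 12.8, 10.0 and 0.466 CPM in PC. Low-marker cells were above late DCT cells in each library. *Slc8a1* was at 4639, 4833, 2105 and 2267 CPM in low-marker cells and at 116, 106, 154 and 134 CPM in PC, while late DCT cells, at 4353, 3971, 4117 and 4347 CPM, were near or above the CNT level. *Slc8a1* thus set CNT cells apart from PC but not from late DCT cells. *Trpv5* was at 112, 123, 139 and 99.6 CPM in low-marker cells, with no library far from the rest.

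*Hsd11b2* was higher in the summed CNT cells than in the summed late DCT cells. It was at 2781, 3067, 3342 and 3416 CPM in all CNT cells and at 2836, 3174, 4238 and 3983 CPM in low-marker cells, against 147, 269.7, 218 and 236 CPM in late DCT cells. Not every single cell was high: 24.6, 18.6, 7.75 and 9.63% of low-marker cells held less than 10 CP10k of *Hsd11b2*. The 90th percentile of late DCT cells was 2.27, 3.55, 3.84 and 5.68 CP10k. PC, at 4663, 5089.7, 4942 and 5136 CPM, were higher than CNT cells in each library. The γ subunit of the epithelial sodium channel, *Scnn1g*, was at 333, 294, 457 and 393 CPM in low-marker CNT cells, at 86.6, 74.3, 73.4 and 61.4 CPM in late DCT cells and at 284, 258, 346 and 367 CPM in PC. Low-marker CNT cells were above PC in each library for this subunit, although cells with other types' markers had not been taken out of PC or the DCT classes. All CNT cells, at 299, 269, 303 and 306 CPM, were above PC in the young libraries and below them in the aged ones.

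**Figure D2:**
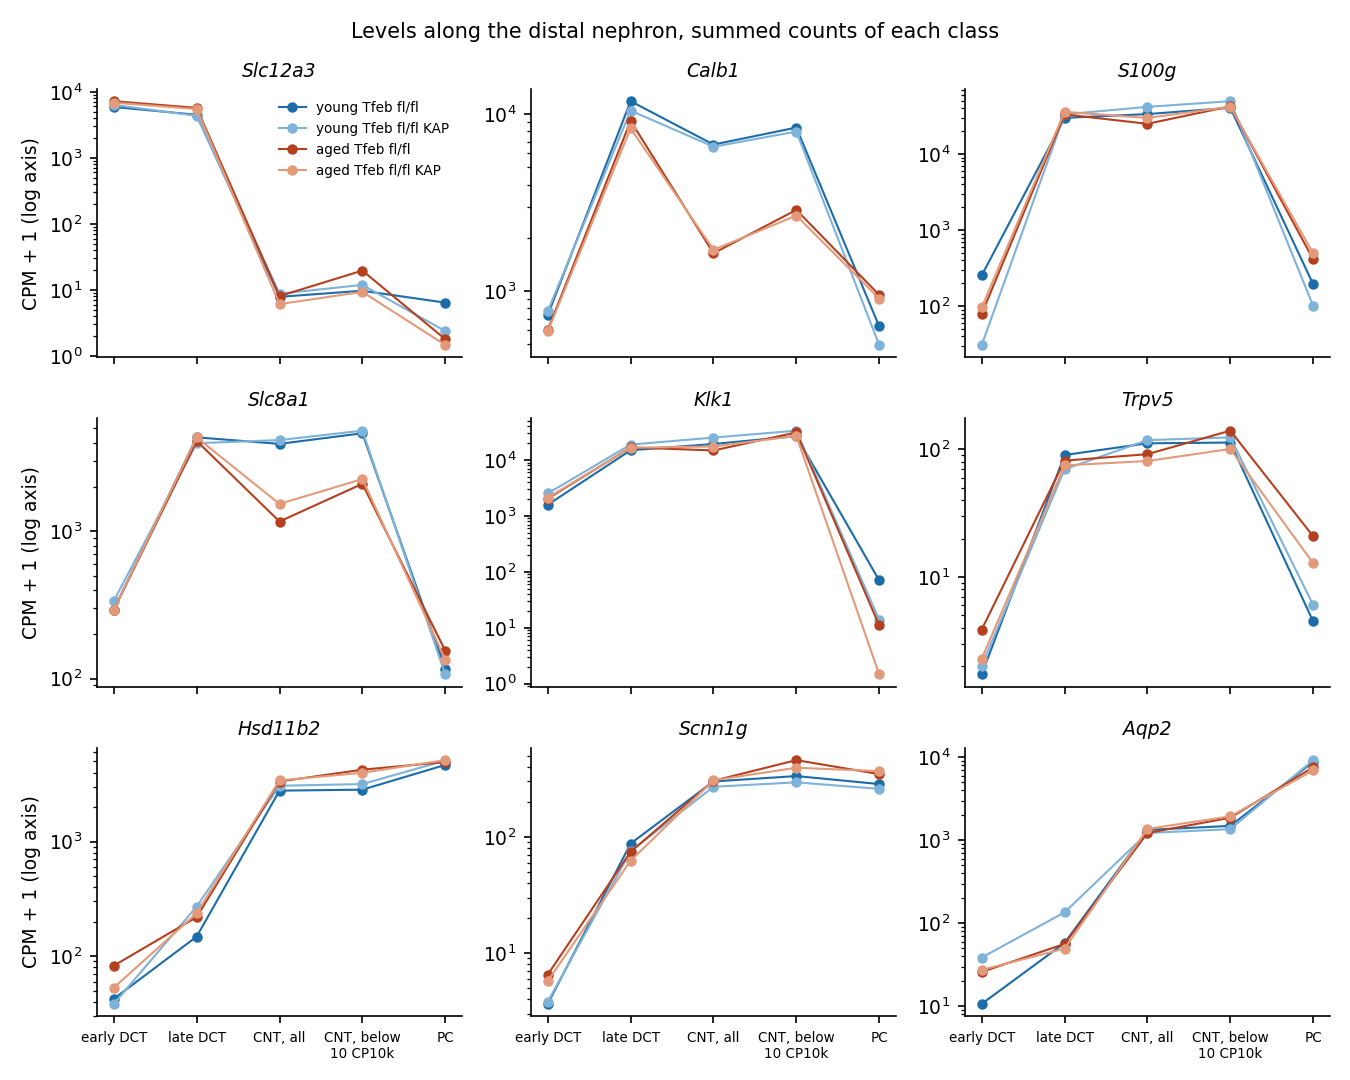
Summed counts of each class as CPM + 1 on log axes for 9 genes, with a line per library running from early DCT through late DCT and CNT cells (all, and those below 10 CP10k of other types' markers) to PC. Calb1 and Slc8a1 of the aged libraries drop below the young ones in CNT cells but lie near them in late DCT cells, and Hsd11b2 steps up between late DCT and CNT cells in each library.

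Of 1524 genes at a mean of 100 CPM or more in the CNT cells over the libraries, 101 were above all 3 neighbour classes in each of the 4 libraries. Among the 15 with the largest difference, *Atp6v1g3*, *Atp6v1c2*, *Hepacam2*, *Oxgr1* and *Slc4a9* are known from intercalated cells. In low-marker cells 58 of 1362 genes were above all neighbours, and the order changed. *Gchfr*, which encodes the feedback regulator of GTP cyclohydrolase 1, led with 126, 112, 80.3 and 107 CPM, against at most 31.3 CPM in late DCT cells and 21.0 CPM in PC. On a log2 scale with 20 CPM added, its difference from the highest neighbour was 1.51 to 1.66 over the 4 libraries. Among the next were *Serpinb1a*, a protease inhibitor (1.12 to 1.94), *Fzd7*, a Wnt receptor (0.88 to 1.32), *Klk1* (0.70 to 0.89), *Rhbg*, an ammonia transporter (0.51 to 0.88), and *Cdo1*, which degrades cysteine (0.42 to 0.96). *Serpinb1a*, *Fzd7* and *Rhbg* were among the leading 15 in both sets of cells. The classes were cut from the same counts, so these differences are a description.

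Low-marker CNT cells also differed among themselves. Across cells of a library, Spearman's rho of *Klk1* with *Aqp2*, the vasopressin-regulated water channel, was -0.65, -0.67, -0.66 and -0.67, and that of *Hsd11b2* with *Aqp2* was 0.70, 0.75, 0.62 and 0.73. *Slc8a1* and *Kl*, which encodes the FGF23 coreceptor α-klotho, had a rho of 0.86, 0.82, 0.72 and 0.73. *Calb1* and *S100g* had a rho of 0.57, 0.47, 0.25 and 0.19, and *Calb1* and *Hsd11b2* one of -0.43, -0.33, -0.05 and -0.05, nearer to 0 in the aged libraries. *Calb1*, *S100g* and *Aqp2* were also used to choose the cells. These values are over 609, 430, 142 and 270 cells that share a library and differ in depth, and they carry no test.

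*Klk1* varied widely between cells. Its lower and upper quartiles over low-marker cells were 5.66 and 408 CP10k in the young *Tfeb* fl/fl library, 0.479 and 542 in the young KAP library, 0 and 550.3 in the aged *Tfeb* fl/fl library and 0 and 448 in the aged KAP library. A UMI of *Klk1* was found in 90.8, 75.1, 66.2 and 55.6% of low-marker cells at median depths of 15413, 17604, 12476 and 12291 UMIs, and in 81.0, 69.0, 63.4 and 54.4% after each cell had been thinned to 2000 UMIs. In PC, which should lack it, the unthinned share was 26.9, 2.66, 5.92 and 0.592% at median depths of 13966, 13372, 15570.0 and 12509.5 UMIs. That background was highest in the library with the highest share, so no order of the libraries is read from the shares.

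The CNT cells were then parted by *Hsd11b2* into cells below 10 CP10k, from 10 to 30 and at 30 or more. The last group held 45.3, 54.4, 72.5 and 62.2% of low-marker cells, more in the aged libraries, and its *Klk1* median was only 17.2, 2.19, 20.2 and 0 CP10k, against 341, 498, 562 and 471 CP10k in the middle group. Median *Calb1* was 139.8, 114, 53.2 and 44.7 CP10k in cells below 10 CP10k of *Hsd11b2*, of which the aged libraries had only 11 and 26. It was 69.0, 62.4, 14.4 and 16.8 CP10k in the middle group and 52.6, 50.7, 18.6 and 18.0 CP10k in the group at 30 or more. *Calb1* medians of the aged libraries were thus below the young ones in each of the 3 groups.

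*Slc8a1*, which had no part in choosing the cells, had medians of 46.9, 51.3, 22.9 and 21.0 CP10k in the middle group and of 27.5, 28.6, 10.3 and 7.72 CP10k in the group at 30 or more. The aged libraries were lower in both, and also in the cells below 10 CP10k of *Hsd11b2* (38.1, 54.0, 30.4 and 3.33 CP10k). *S100g* medians in the group at 30 or more, 336, 403, 363 and 276 CP10k, overlapped between ages. They were higher in both aged libraries in the cells below 10 CP10k of *Hsd11b2* (567, 627, 727 and 746 CP10k) and in the middle group (414, 526, 543 and 556 CP10k). The 11 and 26 aged cells below 10 CP10k of *Hsd11b2* were shallower, at medians of 6013 and 5488 UMIs against 13568 and 21050.0 in the young.

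**Figure D3:**
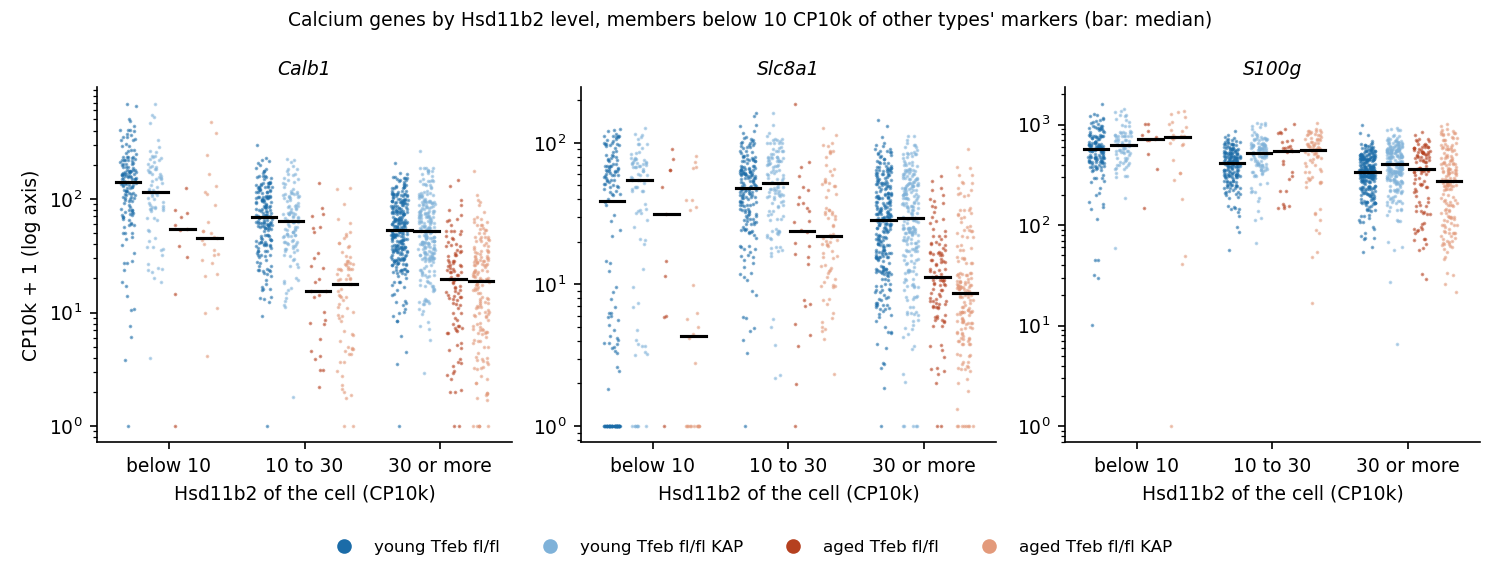
Each point is a low-marker CNT cell and each bar a median, for Calb1, Slc8a1 and S100g in CP10k + 1 on log axes, with cells grouped on the x axis by their Hsd11b2 level and coloured by library. Calb1 medians of the aged libraries lie below those of the young libraries in each group, from 14.4 to 53.2 against 50.7 to 139.8 CP10k, whereas S100g medians of the aged libraries lie above the young ones in the lower 2 groups and overlap with them at the highest Hsd11b2 level.

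What differed with age was read from 2 pairs of libraries that share no library, aged against young *Tfeb* fl/fl and aged against young *Tfeb* fl/fl KAP. Counts were summed over the cells, and a gene is said to have risen or fallen if its CPM ratio was at least 1.5 and the exact 95% interval of its counts left out 1. Ratios below are on the log2 scale. In all CNT cells, 16.8% of 6130 listed genes rose and 1.65% fell in the *Tfeb* fl/fl pair, and 8.94% of 5905 rose and 1.15% fell in the KAP pair. In both pairs 5.77% rose (337 of 5842) and 0.668% fell (39). In low-marker cells 21.2% rose and 1.53% fell in the *Tfeb* fl/fl pair (of 5744), 13.3% rose and 1.57% fell in the KAP pair (of 5590), and 7.47% rose (408 of 5460) and 0.513% fell (28) in both pairs. Of these, 178 of the 337 or 408 genes that rose and 22 of the 39 or 28 that fell were called in both sets of cells. The median ratio of all listed genes was above 0, at 0.26 and 0.20 in all CNT cells. With the median gene set to 0, 109 genes rose and 104 fell in both pairs in all CNT cells, and 97 rose and 108 fell in low-marker cells. Cells with at most 20% of UMIs from mt- genes gave fewer genes past 1.5-fold. In all CNT cells the count went from 1131 to 576 in the *Tfeb* fl/fl pair and from 596 to 363 in the KAP pair. With CPM scaled to UMIs of nuclear-encoded genes only, the counts were 793 of 6629 listed genes and 555 of 6503.

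Of 5 listed genes for calcium entry and exit that had no part in choosing the cells, *Slc8a1* and *Atp2b4* fell in both pairs and none rose, in all CNT cells and in low-marker cells alike, where 0.668% and 0.513% of all genes fell. *Calb1* and *S100g*, the other 2 members of the list, chose the cells, and their ratios are given as a description. Markers of the DCT moved in the same direction in all CNT cells: their list, led by *Sgms2* and holding *Slc12a3*, which the rule limited, summed to 394, 295, 231 and 238 CPM. In low-marker cells it summed to 457, 333, 368 and 317 CPM, and its part in the results on calcium and magnesium genes was not tested.

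*Calb1* was at 6736, 6549.8, 1637 and 1713 CPM in all CNT cells and at 8402, 7979, 2879 and 2673 CPM in low-marker cells. Both aged libraries were below both young libraries, and libraries of the same age lay close together. The ratio was -2.04 (interval -2.07 to -2.01) in the *Tfeb* fl/fl pair and -1.94 (-1.96 to -1.91) in the KAP pair, and in low-marker cells it was -1.55 and -1.58.

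*Slc8a1* was at 3932, 4171, 1167 and 1537 CPM in all CNT cells and at 4639, 4833, 2105 and 2267 CPM in low-marker cells. The ages did not overlap. Its ratio was -1.75 (-1.78 to -1.72) and -1.44 (-1.47 to -1.41), and in low-marker cells -1.14 (-1.19 to -1.09) and -1.09 (-1.13 to -1.06). *Atp2b4*, which encodes a plasma membrane calcium pump, was at 160.4, 152, 64.6 and 67.2 CPM, with ratios of -1.31 and -1.18. In low-marker cells it was at 182, 181, 119.5 and 92.6 CPM, with ratios of -0.61 (-0.81 to -0.42) and -0.97 (-1.14 to -0.80).

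The other calcium genes did not fall in both pairs, except that *S100g* did in all CNT cells with the median gene set to 0. *S100g* was at 33619.7, 41835, 25049 and 29915 CPM in all CNT cells and at 40663, 49667, 42554 and 41937 CPM in low-marker cells, where its ratios were 0.07 and -0.24. *Trpv5* had ratios of -0.29 and -0.55 in all CNT cells and of 0.31 and -0.31 in low-marker cells. Of the other pumps, *Atp2b1* was at 117, 118, 124 and 108 CPM. *Atp2b2*, at 46.8, 56.6, 70.2 and 70.8 CPM, was higher in the aged libraries, and it rose only in the *Tfeb* fl/fl pair of low-marker cells (1.02). *Trpv6* and the mitochondrial exchanger *Slc8b1* were too low to be listed.

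Of 5 listed receptors and enzymes for hormones that act on calcium, 1 fell in both pairs in both sets of cells, where 0.668% and 0.513% of all genes fell. *Kl* was at 2562, 2478, 959 and 1115 CPM in all CNT cells and at 2942, 2827, 1571 and 1534 CPM in low-marker cells. Again the ages did not overlap. Its ratio was -1.42 (-1.45 to -1.38) and -1.15 (-1.18 to -1.12), and in low-marker cells -0.91 and -0.88. The parathyroid hormone receptor *Pth1r*, at 140.2, 164, 84.6 and 86.8 CPM, fell in both pairs of all CNT cells (-0.73 and -0.92). In low-marker cells it was at 184, 211, 191 and 121 CPM and fell only in the KAP pair (-0.80). The vitamin D receptor *Vdr*, at 311, 331, 255 and 233 CPM, had ratios of -0.29 and -0.51.

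These differences were smaller or missing in the late DCT cells of the same libraries. *Slc8a1* was at 4353, 3971, 4117 and 4347 CPM there, with ratios of -0.08 and 0.13. *Atp2b4* was at 215, 192, 212 and 193 CPM, with ratios of -0.02 and 0.01. *Kl*, at 3395, 2851, 2104 and 2142 CPM, was lower in both aged libraries, with ratios of -0.69 and -0.41. *Calb1*, at 11843, 10476, 9159.6 and 8319 CPM, had ratios of -0.37 and -0.33. The difference between the classes was not tested, since there was 1 library per condition.

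The number of late DCT cells per CNT cell was 0.558, 0.483, 1.11 and 1.01, higher in both aged libraries. A shift of that border between the ages cannot be told apart from a change within CNT cells by the ratios above. With CNT and late DCT cells pooled, *Calb1* had ratios of -0.82 and -0.73, *Kl* of -0.98 and -0.72, *Slc8a1* of -0.78 and -0.57 and *Atp2b4* of -0.51 and -0.42. Neither *Slc8a1* nor *Atp2b4* then fell in both pairs. Within the low-marker cells at 30 CP10k or more of *Hsd11b2*, whose share was higher in the aged libraries, *Slc8a1* had ratios of -1.22 and -1.45, *Kl* of -0.88 and -0.91 and *Atp2b4* of -0.64 and -1.04. *Pth1r*, in contrast, rose there in the *Tfeb* fl/fl pair (1.10) and had a ratio of -0.06 in the KAP pair. Both choices of cells were made after the data had been seen.

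Of 15 genes of sodium and potassium transport listed in both pairs 1 rose and none fell in all CNT cells, and the same count was found over 16 genes in low-marker cells, shares near those over all genes (5.77 and 7.47% rose). That gene was *Slc4a4*, a sodium-bicarbonate cotransporter, at 17.7, 12.2, 42.8 and 31.6 CPM, with ratios of 1.27 and 1.37. The subunits of the epithelial sodium channel were within 1.5-fold in all CNT cells, at 0.38 and 0.06 for *Scnn1a*, 0.33 and 0.35 for *Scnn1b* and 0.02 and 0.18 for *Scnn1g*. The potassium channel *Kcnj1*, at 436, 461, 432 and 442 CPM, had ratios of -0.01 and -0.06.

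Of 12 genes of mineralocorticoid and glucocorticoid signalling, only *Wnk1* fell in both pairs of all CNT cells and none rose, where 0.668% of all genes fell and 5.77% rose. This kinase gene, which governs sodium and potassium transport in the distal nephron, was at 1686, 1516, 831 and 910.5 CPM, with ratios of -1.02 and -0.74. In low-marker cells, at 2069.7, 1808, 1336 and 1249.9 CPM, it fell in the *Tfeb* fl/fl pair (-0.63) and had a ratio of -0.53 in the KAP pair. In late DCT cells it was at 4179, 3531, 4205 and 4369 CPM. The mineralocorticoid receptor *Nr3c2* rose in both pairs of low-marker cells (0.63 and 0.63) and had ratios of 0.46 and 0.43 in all CNT cells. *Hsd11b2* had ratios of 0.27 and 0.16 in all CNT cells and of 0.58 and 0.33 in low-marker cells.

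*Sgk1*, an aldosterone-induced kinase gene, went opposite ways in the 2 pairs. It was at 303, 207, 136 and 366 CPM in all CNT cells, lowest in the aged *Tfeb* fl/fl library and highest in the aged KAP library. It fell in the *Tfeb* fl/fl pair (-1.16) and rose in the KAP pair (0.82), and did so in low-marker cells too (-1.48 and 1.11). In PC it was at 492, 435, 109.5 and 343 CPM, again lowest in the aged *Tfeb* fl/fl library.

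The remaining transport lists held few genes past 1.5-fold in both pairs. None of 8 genes of sodium channel processing and the kallikrein system did so in either set of cells. Over all genes 5.77 and 7.47% rose and 0.668 and 0.513% fell in both pairs (all CNT cells, low-marker cells). *Klk1* had ratios of -0.38 and -0.53 in all CNT cells and of 0.22 and -0.31 in low-marker cells. Of 5 water transport genes, *Aqp3*, a basolateral water channel, and *Adcy6*, an adenylyl cyclase, rose in both pairs of low-marker cells, where 7.47% of all genes rose. Neither did so in all CNT cells, where of 7 listed genes only the vasopressin receptor gene *Avpr1a* rose. In low-marker cells *Avpr1a* went the other way in the KAP pair. *Aqp3* was at 591, 439, 1083 and 893 CPM in low-marker cells, with ratios of 0.87 and 1.02, and both aged libraries were above both young ones. *Fxyd4* and *Apela*, markers of PC, rose in low-marker cells too, at 1.22 and 0.72 and at 0.62 and 0.65, although *Fxyd4* was limited by the rule. *Aqp2*, also limited by it, had ratios of 0.33 and 0.52. Of 7 magnesium genes, the channel gene *Trpm6* fell in both pairs in both sets of cells, *Cnnm2* in all CNT cells only, and none rose, beside 0.668% (all CNT cells) and 0.513% (low-marker cells) of all genes that fell. *Trpm6*, also a marker of the DCT, went from 39.7 and 42.9 to 15.5 and 23.9 CPM in all CNT cells. Late DCT cells held 186, 211, 237 and 232 CPM of *Trpm6*.

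Among transcription factors of the distal nephron, 10 of 19 rose in both pairs of low-marker cells and none fell, where 7.47% of all genes rose. In all CNT cells 7 of 20 rose, where 5.77% of all genes did. Markers of PC moved with them in low-marker cells: 3 of 7 rose and none fell, and the list, led by *Hsd11b2*, summed to 6020.2, 6391, 9181 and 8936 CPM. The part of PC markers, and of the higher share of cells rich in *Hsd11b2*, in this result was not tested. *Gata2* was at 138, 151, 319 and 252 CPM in low-marker cells, with ratios of 1.21 and 0.74. *Tfap2b* was at 148, 148, 329 and 284 CPM, with ratios of 1.15 and 0.94. *Pax8* was at 46.1, 41.9, 83.8 and 105 CPM, with ratios of 0.86 and 1.33.

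*Gata3*, *Tfap2a*, *Emx1*, *Emx2*, *Pax2*, *Sall3* and *Lhx1* were the others that rose in low-marker cells, and in each of the 10 both aged libraries were above both young ones. With the median gene set to 0, 4 of 19 rose in low-marker cells and 3 of 20 in all CNT cells, where 97 and 109 of all listed genes rose. *Tfcp2l1*, at 787, 788, 1128 and 1130.2 CPM in low-marker cells, had a ratio of 0.52 in each pair, and *Mecom*, at 176, 159, 189 and 191 CPM, had ratios of 0.10 and 0.26. In PC, *Gata2* was at 362, 359.9, 338 and 336 CPM and *Gata3* at 396, 358, 377 and 333 CPM, neither past 1.5-fold. The whole list, led by *Tfcp2l1* in CNT cells, summed to 2445, 2343, 3844 and 3632 CPM in low-marker cells, to 1899.8, 1905, 2760.2 and 2513 CPM in late DCT cells and to 1958, 1974, 2799 and 2606 CPM in early DCT cells, higher in both aged libraries of each class. Of 5 Notch pathway genes, the target genes *Hes1* (155, 123, 261 and 257 CPM) and *Nrarp* (31.5, 27.1, 75.9 and 51.4 CPM) rose in both pairs of low-marker cells and none fell, where 7.47% of all genes rose. In all CNT cells only *Nrarp* of 6 rose, where 5.77% of all genes did.

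Of 5 listed genes of antigen presentation and interferon response in low-marker cells, 4 rose in both pairs and none fell, where 7.47% of all genes rose. In all CNT cells 4 of 6 rose, where 5.77% of all genes did. *H2-D1*, a class I histocompatibility gene, was at 77.2, 88.3, 208 and 198 CPM in low-marker cells, with ratios of 1.43 and 1.16. *H2-K1* was at 192, 191, 398 and 334 CPM (1.05 and 0.81), and *B2m*, the light chain of both, was at 27.9, 21.0, 74.9 and 46.7 CPM (1.43 and 1.15). The interferon-induced gene *Ifi27* was at 33.4, 31.7, 75.4 and 75.6 CPM. *H2-D1* was higher in the aged libraries of PC as well, at 240.1, 268, 429 and 392 CPM. The immune list, led by *Ptprc*, moved with these genes in low-marker cells, at 8.39, 8.96, 28.9 and 19.6 CPM, and so did the endothelial list, at 7.86, 18.0, 26.5 and 30.2 CPM. The part of both in the result was not tested. With the median gene set to 0, 3 of the 5 rose in low-marker cells and 2 of 6 in all CNT cells, where 97 and 109 of all listed genes rose.

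Among single genes, *Id3*, an inhibitor of basic helix-loop-helix factors, came first of those that rose when genes at a mean of 50 CPM or more were ordered by the smaller of the 2 ratios. It was at 93.4, 79.8, 401 and 324 CPM in low-marker cells, with ratios of 2.10 (1.96 to 2.24) and 2.02 (1.88 to 2.16). It was higher in the aged libraries of late DCT cells too, at 60.5, 36.8, 143 and 152 CPM, but lower in those of PC, at 379, 435, 270.0 and 217 CPM. *Stc1*, which encodes the secreted protein stanniocalcin-1, was at 72.8, 69.6, 431 and 246 CPM in low-marker cells, with ratios of 2.56 and 1.82. PC showed the same order, at 120.3, 117, 449 and 322 CPM.

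Also among the 12 leading genes that rose were *Txnip*, which binds thioredoxin (387, 336, 911 and 969.9 CPM in low-marker cells), *Ahnak* (118, 133, 385 and 334 CPM), *Dsp*, which encodes the desmosomal protein desmoplakin (58.3, 47.0, 130.3 and 119 CPM), and *Nectin3*, an adhesion gene (107, 100.3, 273 and 217 CPM). *Scg5*, *Snn*, *Slco3a1* and *Syne2* completed the list with *Ifi27* and *H2-D1*. In all CNT cells, *Foxi1*, *Slc4a9*, *Aqp6* and *Slc26a4* of intercalated cells were among the leading 12. In low-marker cells *Foxi1* was at 4.51, 3.24, 7.84 and 2.87 CPM, below the level of a listed gene.

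Besides the calcium genes and *Kl*, the genes that fell furthest included *Spp1*, which encodes osteopontin. It was at 8723, 7095, 4324 and 3992 CPM in low-marker cells, with ratios of -1.01 and -0.83, and both aged libraries were below both young ones. *Tubb2a*, a tubulin gene, was at 220.3, 199, 107 and 117 CPM. The transferrin receptor *Tfrc* was at 102, 116, 63.7 and 52.9 CPM, with ratios of -0.68 and -1.13. The mitochondrial import gene *Timm8a1* and the iron-sulfur cluster gene *Bola3* fell in low-marker cells at -0.91 and -0.80 and at -0.71 and -0.68. *Manf*, a chaperone of the endoplasmic reticulum, was at 219, 426, 112 and 89.2 CPM, with most of its spread in the young KAP library.

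**Figure D4:**
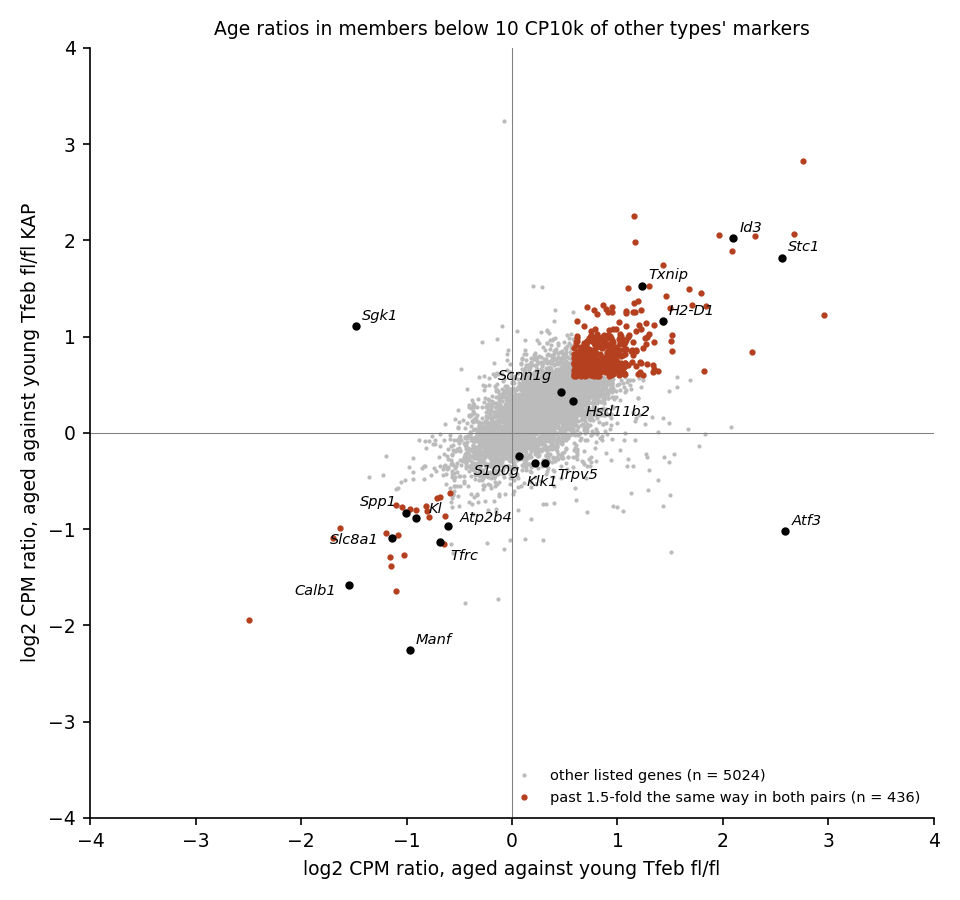
Each point is a gene listed in both age pairs in low-marker CNT cells, with the log2 CPM ratio of the Tfeb fl/fl pair on the x axis and of the KAP pair on the y axis, red where the gene rose or fell in both pairs (436 genes). Calb1, Slc8a1, Kl and Spp1 lie at the lower left, Id3 and Stc1 at the upper right, and Sgk1 and Atf3 lie in the quadrants where the pairs go opposite ways.

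None of 78 nuclear-encoded subunits of oxidative phosphorylation rose or fell in both pairs in either set of cells. Over all genes 5.77 and 7.47% rose and 0.668 and 0.513% fell in both pairs (all CNT cells, low-marker cells). The medians of the list were -0.15 and -0.10 in all CNT cells, beside 0.26 and 0.20 over all listed genes. The mt- encoded subunits summed to 192154, 182879.7, 105219 and 145801 CPM in all CNT cells and to 235497, 219884, 133730.4 and 166951 CPM in low-marker cells, lower in both aged libraries. In the *Tfeb* fl/fl pair 8 of 12 fell in all CNT cells and 9 of 13 in low-marker cells, and in the KAP pair 2 of 12 fell in each. In the KAP pair 1 subunit also rose in all CNT cells, where 8.94% of all genes did. Of all genes, 1.65 and 1.53% fell in the *Tfeb* fl/fl pair and 1.15 and 1.57% in the KAP pair. Those that fell in both pairs were *mt-Nd1* and *mt-Nd3*, and none rose in both. *mt-Nd1* was at 10152, 10326, 4239 and 6383 CPM in all CNT cells. The subunits are themselves mt- genes, so their fall and the lower share of mt- genes per aged cell are not separate results. What lowered both was not tested. Of 30 lysosomal genes in low-marker cells, *Ctsh* rose in both pairs and none fell. None of 16 autophagy genes rose or fell in both pairs in low-marker cells. Beside both lists, 7.47% of all genes rose and 0.513% fell in both pairs of these cells. The clock gene *Nr1d1* rose in both pairs, at 22.9, 15.2, 114 and 58.8 CPM in all CNT cells, and was also higher in the aged libraries of PC, at 50.2, 42.2, 126 and 105 CPM.

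Whether the KAP genotype changed CNT cells was read from the aged pair and the young pair, which share no library with each other but share libraries with the age pairs. *Tfeb* was at 23.7, 24.8, 40.3 and 33.4 CPM in all CNT cells, and its KAP ratios were -0.27 in aged and 0.07 in young mice. Since the study describes this Cre as specific to S3 cells and a 3′ count need not cover the deleted part, this checks no label. In aged mice 0.220% of 6350 genes rose and 2.52% fell with the KAP genotype, and in young mice 0.302% of 5636 rose and 0.656% fell. With cells thinned to 2000 UMIs, the genes past 1.5-fold went from 174 to 293 in aged mice and from 54 to 272 in young mice. In both pairs 0% rose and 0.108% fell (6 of 5554). In low-marker cells 0.563% rose and 3.60% fell in aged mice, 0.666% rose and 0.742% fell in young mice, and 0.0193% rose (1 of 5170) and 0.0967% fell (5) in both.

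None of the 5 genes of calcium entry and exit outside the rule rose or fell with genotype in either pair in either set of cells. Over all genes only 0.220 to 0.666% rose and 0.656 to 3.60% fell in a pair, so this count is near the share over all genes. Among the calcium hormone receptors, *Pth1r* fell with the KAP genotype in aged mice in low-marker cells (-0.66, at 191 and 121 CPM), but had a ratio of 0.04 in all CNT cells. *Slc8a1* had KAP ratios of 0.40 in aged and 0.09 in young mice in all CNT cells. The gene that rose in both pairs of low-marker cells was *Cox7a1*, a subunit of cytochrome c oxidase, at 53.6, 84.6, 50.5 and 85.0 CPM, with ratios of 0.75 (0.43 to 1.09) in aged and 0.66 (0.49 to 0.83) in young mice. Both KAP libraries were above both *Tfeb* fl/fl libraries. *Abca13*, a transporter gene and DCT marker, fell in both pairs, at 76.0, 45.0, 84.7 and 38.3 CPM in low-marker cells, with ratios of -1.14 and -0.75. In late DCT cells, where it was at 759.9, 447.0, 1016 and 563 CPM, the KAP libraries were lower too.

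Of the immediate early and stress genes, 21 of 27 fell and none rose in all CNT cells with the KAP genotype in aged mice, with a list median of -1.11 beside -0.09 over all listed genes. In young mice 1 rose and none fell. With age 25 of 27 rose in the *Tfeb* fl/fl pair and none rose or fell in the KAP pair. Of all genes, 2.52% fell with genotype in aged mice and 16.8% rose with age in the *Tfeb* fl/fl pair. In low-marker cells 18 of 26 fell with the KAP genotype in aged mice and 6 rose in young mice, while 24 rose with age in the *Tfeb* fl/fl pair and 6 fell in the KAP pair. The shares over all genes were there 3.60, 0.666, 21.2 and 1.57%. The aged *Tfeb* fl/fl library was the high one. *Atf3*, a stress-induced transcription factor gene, was at 244, 386, 1333 and 466 CPM in all CNT cells and at 69.8, 162, 419 and 80.0 CPM in low-marker cells. In late DCT cells (64.4, 150.5, 172 and 65.5 CPM) and PC (726, 1279.7, 1289 and 779 CPM), it was high in both the aged *Tfeb* fl/fl and the young KAP library. *Fos* was at 2050.5, 2144, 4579.9 and 1903 CPM and *Socs3*, a feedback inhibitor of cytokine signalling, at 121, 135, 407 and 138 CPM in all CNT cells.

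The 5 genes at a mean of 50 CPM or more that rose furthest with the KAP genotype in young mice were *Manf*, *Hspa5*, *Sdf2l1*, *Herpud1* and *Gdf15*. *Hspa5*, which encodes the chaperone BiP, was at 479, 915, 539 and 382 CPM in all CNT cells and rose with the KAP genotype in young mice (0.93), and *Manf* (0.95), *Sdf2l1* (0.82) and *Herpud1* (0.69) rose with it. In aged mice *Hspa5* had a ratio of -0.50. PC showed the same high library for *Hspa5*, at 431, 854, 580.2 and 434 CPM. The haemoglobin gene *Hbb-bs*, at 162 CPM in the young *Tfeb* fl/fl library and 2.79 CPM in the young KAP library of CNT cells, had no UMI in the aged CNT cells, but was at 365 CPM in PC of the aged KAP library. How much of these differences came from the handling of a library cannot be told apart from genotype or age.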

How the data were processed

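The authors prepared the libraries with 10x Genomics 3′ chemistry and, per the labels, counted reads with Cell Ranger 6.0.0 (mm10) and used Seurat 4.4.0. Per the study's methods, background RNA was removed with SoupX. The deposited values are whole counts of UMIs per gene and barcode, with 2.90 to 12.9% of the entries written as 0. Whether they were written after that step is not stated. The gene annotation was not given in the sources used here, and gene positions were taken from GENCODE (GRCm38) by symbol. The 4 matrices held 194747936, 155327520, 125729484 and 135792884 UMIs.

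The authors' cell filters (1000 genes, 50% mt-) were applied, and CNT cells were chosen by the expression rule without clustering. Doublets were kept. Scrublet (scanpy 1.11.5) scores were used as an alternative. Summed counts of each library's cells were scaled to CPM. A gene was listed at a mean of 20 CPM and 50 UMIs over both libraries. Intervals are exact binomial (95%, Clopper-Pearson). No test between mice was possible with 1 library per condition. Besides members of the CNT lists, genes were named by rule: the 15 furthest above all neighbours, and, among genes at a mean of 50 CPM, the 12 highest and 12 lowest past 1.5-fold in both age pairs, up to 8 each way for genotype and 5 each way for single pairs, leaving out mt- genes and genes under 0.5 of their level over all barcodes in both libraries. *Mecom*, *Ctsh*, *Fos*, *Socs3*, *Nr1d1*, the antigen presentation genes, *Aqp3*, *Spp1* and the energy genes come from lists, and *Hbb-bs* was noted after its values were seen. The CNT rule, the 36 gene lists and the comparisons were chosen with earlier results of these data known. The ranking in low-marker cells was added after the data had been seen. The scripts (Python 3.11.15, scipy 1.17.1, matplotlib 3.10.9, pandas 2.3.3, numpy 2.4.6) were tested on simulated data. Some members of the lists are counted but not reported here by name.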

Additional observations from a re-analysis of the deposited data

Results flagged for a closer look

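The following genes moved past 1.5-fold in opposite directions in the 2 pairs of libraries under the same contrast, in all CNT cells. None of these differences between pairs was tested, since each rests on 1 library per condition. With age, *Rnd3* rose in the *Tfeb* fl/fl pair (0.80 on the log2 scale) and fell in the KAP pair (-0.68). *Gdf15*, a stress-induced secreted factor, rose in the *Tfeb* fl/fl pair (0.97) and fell in the KAP pair (-0.83). *Sgk1* fell in the *Tfeb* fl/fl pair (-1.16) and rose in the KAP pair (0.82). With the KAP genotype, *Atf3* fell in aged mice (-1.52) and rose in young mice (0.67), and *Gdf15* fell in aged mice (-1.12) and rose in young mice (0.68). *Gdf15* was at 54.0, 86.7, 106 and 48.7 CPM and *Rnd3* at 101, 92.7, 176 and 57.7 CPM, both highest in the aged *Tfeb* fl/fl library. In low-marker cells *Gdf15* passed 1.5-fold in the same directions in all 4 comparisons, whereas *Rnd3* had an age ratio of 0.32 in the *Tfeb* fl/fl pair.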

How the results depend on the processing

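No paired analysis was possible because each condition has 1 library, and for the same reason no replicate could be left out. Of 2733 values of called named genes under the alternatives, 2715 kept their direction and 18 did not. The reversals came mostly without cells at 10 CP10k or more of other types' markers: in the *Tfeb* fl/fl age pair *AY036118* was then at 0.40, *Aqp6* at -1.32, *Atp6v1c2* at -0.50, *Hepacam2* at -0.58, *Mme* at -1.38 and *Pth1r* at 0.06, and in the KAP age pair *Aqp6* at -0.39, *Atp6v1c2* at -0.92, *Atp6v1g3* at -1.05, *Avpr1a* at -1.50, *Foxi1* at -0.18 and *Oxgr1* at -0.08. With genotype in aged mice *Gm42418* was at 0.20 without these cells, at 0.26 as a mean over cells and at 0.26 after thinning. *Rxra* was at -0.36 after thinning, and *Pth1r* at 0.06 with late DCT cells pooled and at 1.10 in cells rich in *Hsd11b2*, all in the *Tfeb* fl/fl age pair. The cause of these was not tested.

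Counts of genes past 1.5-fold were 1131 and 596 with age (*Tfeb* fl/fl, KAP pair) and 174 and 54 with genotype (aged, young). With at most 20% mt- UMIs there were 462 and 308 young cells (*Tfeb* fl/fl, KAP), and counts of 576 and 363 with age and 98 with genotype in young mice. Without cells of other types' markers there were 142 aged *Tfeb* fl/fl cells, and 58 genes above all neighbours. As a mean over cells the young genotype count was 86, and with cells thinned to 2000 UMIs the genotype counts were 293 and 272. With the median gene set to 0 (median-of-ratios scaling) the age counts were 658 and 359, and 695 for the *Tfeb* fl/fl pair in low-marker cells. At a mean CPM of at least 10 the counts were 1057 (KAP age pair), 277 and 122, at 100 they were 245, 98, 59 and 9, and at a fold of 2 they were 228, 90, 54 and 10. With late DCT cells pooled the age counts were 663 and 263, and 1 gene of the calcium list in place of 3 fell in both pairs, namely *Calb1*, which chose the cells. Without it none in place of 2 fell. In cells at 30 CP10k or more of *Hsd11b2* the genotype counts were 343 and 125. A stricter minimum or fold leaves fewer genes by construction. For the others the cause was not tested.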
